A study of Mus musculus with 18 samples.

Results

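Livers of 3 mice given streptozotocin (STZ) were compared with livers of 3 control mice (Con) by RNA sequencing, to describe which liver genes differ when the insulin-producing beta cells of the pancreas have been damaged. All genes with at least 1 RPKM (a read number corrected for the length of the transcript and the size of the library) in at least 3 of these 6 livers were taken, which left 10311 of the 19057 gene symbols in the deposited table. Both groups were male ICR mice, an outbred stock, sampled at 10 weeks of age. Con mice received regular diet and saline, and STZ mice received 1 injection of STZ at the start of the experiment. Streptozotocin enters cells through the glucose transporter GLUT2, which hepatocytes carry as well as beta cells, so that diabetes and an exposure of the liver to the toxin cannot be told apart in this comparison. The other livers of the series were from STZ mice given gut microbiota of AOS-dosed donors (A10-FMT) or of control donors (Con-FMT), prepared from pooled gut content, from mice given alginate oligosaccharide (AOS) at 10 mg/kg, and from mice given STZ with AOS at the same dose, with 3 mice in each group. A10-FMT and Con-FMT only entered the estimate of the spread between mice, and AOS and STZ+AOS served as another pair of groups that differed by STZ. The mice were kept on a light cycle with chow and water freely available, and the hour of sampling and whether food was withdrawn before it were not given in the sources used here.

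The liver stores glucose after a meal and makes it between meals, and insulin sets this balance. Insulin switches on the enzymes that build fatty acids, and holds back gluconeogenesis, amino acid breakdown, fatty acid oxidation and ketone production. The mouse liver also differs between the sexes. The pulsed growth hormone secretion of males keeps genes such as those of the major urinary proteins (Mup) high through the factor STAT5b, and the steadier secretion of females keeps a different set high.

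All 6 livers carried hepatocyte transcripts at high levels, with a sum over 7 hepatocyte markers of 38496 to 57373 RPKM in Con and 37164 to 50319 RPKM in STZ. The Y-linked gene Eif2s3y was at 20.01 to 34.8 RPKM in all 6 mice. The RPKM of a library summed to 749557 to 806937 in Con and to 631126 to 684659 in STZ (exact permutation test, two-sided, p = 0.1, the smallest that 3 against 3 mice allow). The 21 Mup genes took 35.8%, 23.7% and 27.0% of this sum in Con mice 1 to 3 (mean 28.8% ± 6.30, SD, n = 3), and 0.0327%, 0.0274% and 19.2% in STZ mice 1 to 3 (mean 6.42% ± 11.1, SD, n = 3). The groups did not overlap, although STZ mouse 3 lay far nearer to Con than the other STZ mice (exact permutation test, two-sided, p = 0.1). Without the Mup genes the sums overlapped (exact permutation test, two-sided, p = 0.3). Because RPKM are corrected for library size, a fall of very abundant transcripts can go along with higher values of other genes. The log2 changes of the 10311 genes centred on a median of 0.21, and the part of the Mup genes in this was not tested. Calls of STZ against Con were therefore also computed after median-ratio scaling, which brings that median to -0.01. Counts of genes without overlap, differences by mouse and most counts with a mouse left out were computed only as deposited. A gene is described below as risen or fallen if it passed limma's test at an adjusted p under 0.05 in the values as deposited, and calls that did not last after scaling are named.

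In the values as deposited 4051 of the 10311 genes (39.3%) were called, 3466 higher (33.6%) and 585 lower (5.67%) in STZ. After median-ratio scaling 2861 genes (27.7%) were called, 1469 higher (14.2%) and 1392 lower (13.5%). The scaling ended 1997 of the higher calls and none of the lower ones, and it turned no call to the opposite direction. The share of higher calls was 85.6% as deposited and 51.3% after scaling. At least 2-fold changes were called for 467 genes higher and 179 lower as deposited (6.27% of the genes tested in both directions together), and 90 and 78 of these reached 4-fold. As deposited, the 3 STZ mice lay wholly above or below the 3 Con mice in 4960 genes (48.1%), in 4235 above (41.1%) and in 725 below (7.03%). An unadjusted p under 0.05 by limma was found for 5105 genes (49.5%), also as deposited. At the stricter limits of an adjusted p of 0.001 or less and a 2-fold change, 204 genes were called (1.98%). The level of each gene and its change are shown for both scalings in the plot of change against level.

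**Figure D1:**
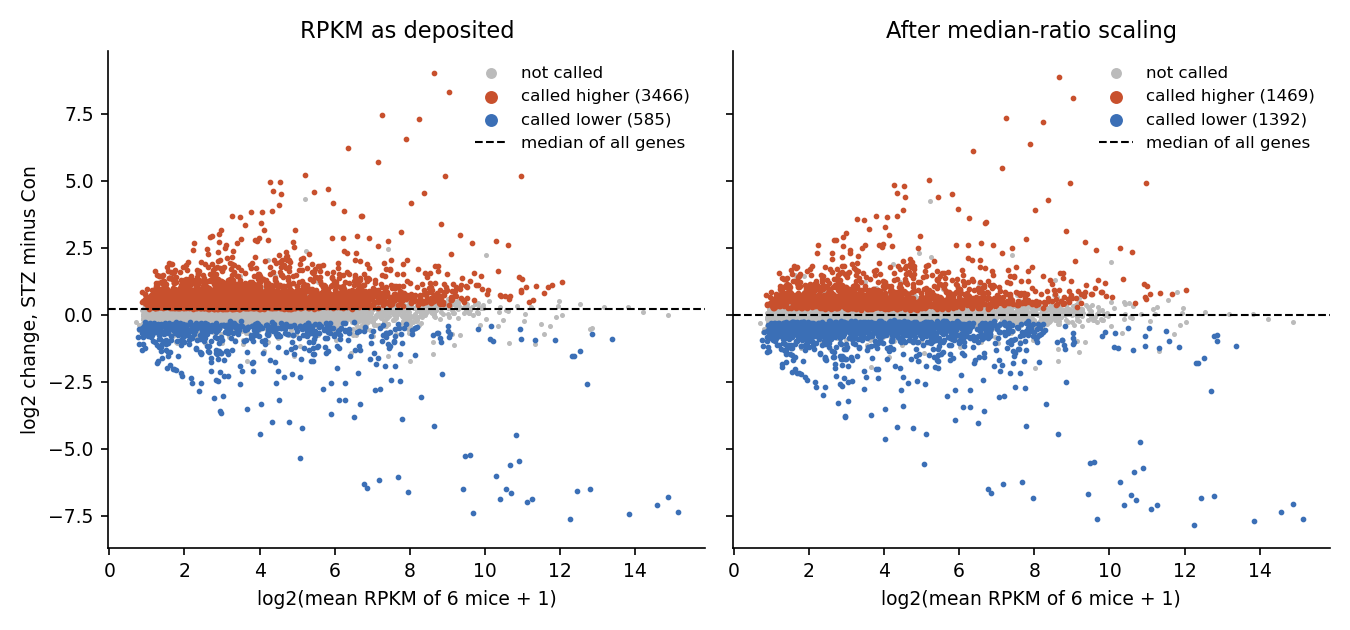
Change of each of the 10311 genes (vertical axis, log2 change on the log2(RPKM + 1) scale, STZ minus Con) against its level (horizontal axis, log2 of the mean RPKM of the 6 mice plus 1), in the RPKM as deposited (left) and after median-ratio scaling (right). Each point is a gene, coloured where it was called. The dashed line, the median of all genes, lies at 0.21 on the left and at -0.01 on the right, and the calls change from 3466 higher and 585 lower to 1469 and 1392.

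The genes that moved furthest belong to families of near-identical copies, and their promoters are shown here because a reader can see in them how alike the copies are and which letters they share. Cyp2a4 and Cyp2a5, cytochrome P450 enzymes that hydroxylate steroids and coumarin, rose. The 80 bases shown lie before their start sites, at chr7:26307102-26307181 for Cyp2a4 and chr7:26835248-26835327 for Cyp2a5, both on the plus strand (RefSeq, GRCm38.p6, 5′ to 3′). Capitals mark TTGCATAA, the reverse strand of TTATGCAA, a sequence that the clock-driven factors DBP, TEF and HLF are known to bind, and which overlaps the sites of C/EBP factors. It begins 70 bases before the start of Cyp2a4 and 71 before that of Cyp2a5, and the windows are identical at 78 of 80 bases.
Cyp2a4: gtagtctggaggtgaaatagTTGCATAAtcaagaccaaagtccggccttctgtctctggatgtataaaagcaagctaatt
Cyp2a5: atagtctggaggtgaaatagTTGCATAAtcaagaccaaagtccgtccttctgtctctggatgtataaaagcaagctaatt
The Mup genes fell. Windows of 80 bases are shown for Mup2 at chr4:60140010-60140089 and Mup15 at chr4:61439851-61439930, both on the minus strand, with TTATGAAA in capitals, 203 and 196 bases before the start. Those of Mup11 and Mup19 have the letters of Mup2, and Mup15 is identical to Mup2 at 79 of 80 bases.
Mup2: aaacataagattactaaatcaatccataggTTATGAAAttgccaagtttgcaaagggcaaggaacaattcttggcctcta
Mup15: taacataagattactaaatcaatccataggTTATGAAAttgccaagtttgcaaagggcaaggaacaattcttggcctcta

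On either strand, TTATGCAA was found in the 250 bases before the start in 0.694% of 32851 RefSeq promoters, in 0.638% of the 10497 promoters of genes tested, in 11 of the 462 promoters of genes called at least 2-fold higher (2.38%) and in 3 of the 178 of genes called at least 2-fold lower (1.69%). TTATGAAA was found in 1.02% of all promoters and 0.562% of those of genes tested, in 3 of the higher set (0.649%), near the share of genes tested, and in 12 of the lower set (6.74%), of which 10 were those of Mup genes, copies of one another. TATAAA, the core of the TATA box, searched alike, was found in 12.4% of all promoters, 6.71% of those of genes tested, 10.4% of the higher set and 15.7% of the lower set. These letters were chosen after the sequences had been read, and a match describes the window and not a bound site. Promoters of Cyp4a10, Cyp4a14 and Sult2a1 were not analysed here.

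The largest rises were of enzymes for lipids, steroids and foreign compounds. Cyp4a14, which hydroxylates the end of fatty acid chains, was at 0.20, 0.57 and 0.55 RPKM in Con mice 1 to 3 and at 885, 1111 and 409 RPKM in STZ mice 1 to 3. Its log2 change on the log2(RPKM + 1) scale was 9.02 ± 0.67 (SE, adjusted p = 3.72e-05 by limma). Cyp4a10, its neighbour on chromosome 4 with the same kind of activity, was at 1.29 to 2.77 RPKM in Con and at 1264, 1178 and 696 RPKM in STZ (log2 change 8.31 ± 0.53, adjusted p = 1.72e-05 by limma). Every STZ mouse was far above the highest Con mouse for both genes, and STZ mouse 3 was the lowest of the STZ mice. Sult2a1 and Sult2a2, sulfotransferases for steroids and bile acids, were at no more than 0.560 RPKM in any Con mouse, and at 1460, 333 and 16.1 RPKM and at 329, 152 and 8.37 RPKM in STZ mice 1 to 3. The groups did not overlap for either gene, but the STZ mice differed widely among themselves, with mouse 3 lowest each time. Sult2a and Cyp2a genes have near-identical copies, and reads may have been split among them.

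Among steroid-metabolizing P450 genes, Cyp17a1, which makes androgen precursors, was at 0.290 to 1.05 RPKM in Con and at 97.6, 88.7 and 25.6 RPKM in STZ (log2 change 5.21 ± 0.87, adjusted p = 0.0016 by limma). Cyp2b9 was at 0.920, 9.87 and 4.18 RPKM in Con and at 465, 214 and 153 RPKM in STZ. Cyp2a4 was at 0.380, 5.21 and 2.99 RPKM in Con and at 1061, 113 and 232 RPKM in STZ, and here mouse 2 was the lowest of the STZ mice. Cyp2a5 had the largest rise in RPKM of all genes, from 42.4, 152 and 100 RPKM to 6981, 3282 and 1466 RPKM (log2 change 5.20 ± 0.65, adjusted p = 0.000457 by limma). Cyp2c37 went from 10.3, 30.6 and 19.9 RPKM to 1694, 981 and 214 RPKM (log2 change 5.18 ± 0.68, adjusted p = 0.00055 by limma). For each of these 5 genes the lowest STZ mouse stood above the highest Con mouse, as the rule for choosing them required. The levels are drawn mouse by mouse in the plot of the genes with the largest changes.

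**Figure D2:**
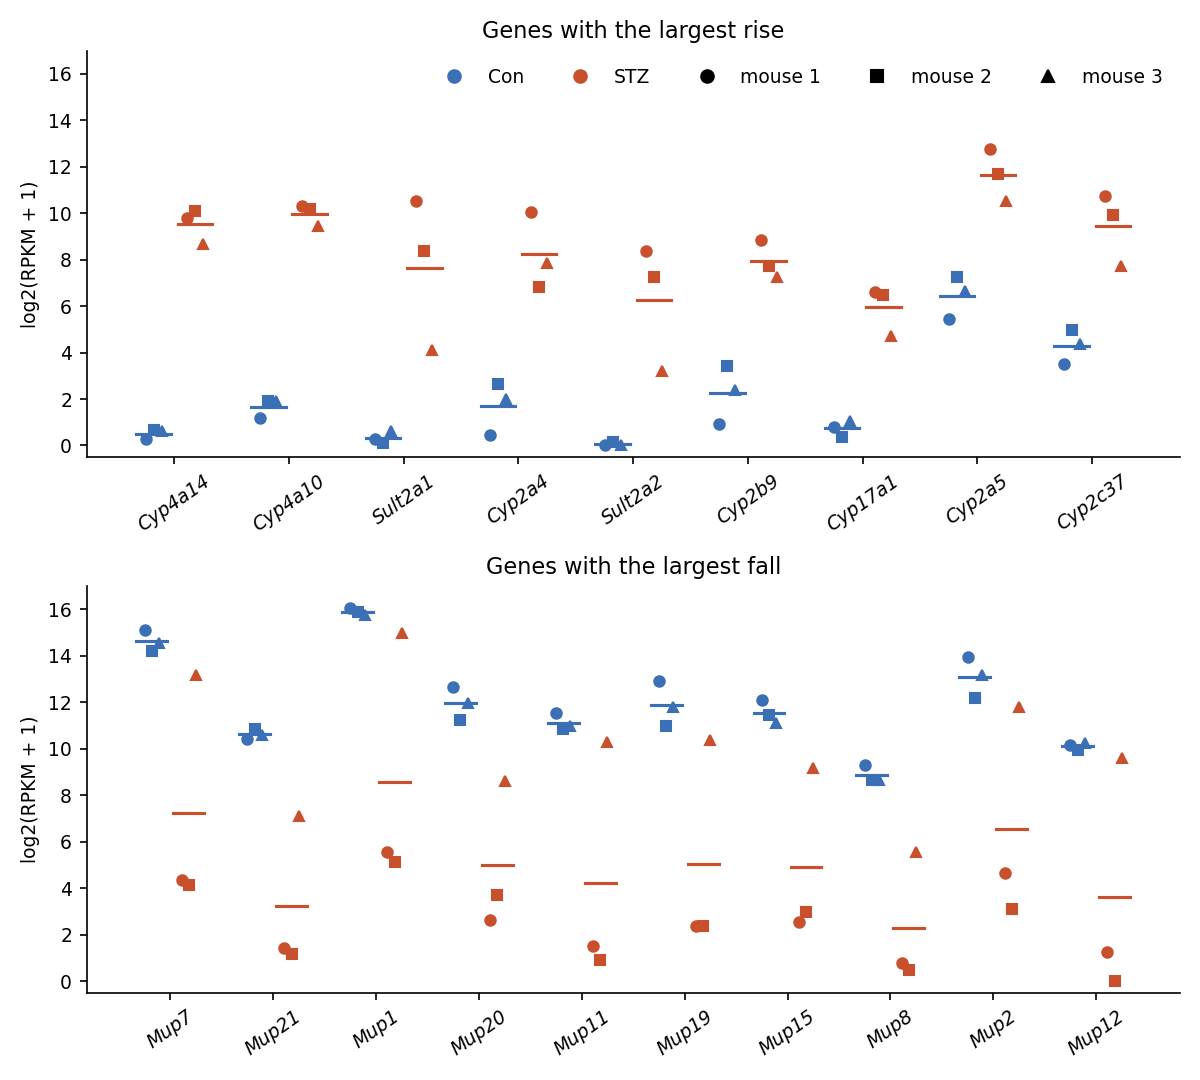
Level of each gene in each mouse (vertical axis, log2(RPKM + 1)) for 9 of the 10 genes with the largest rise (top) and the 10 with the largest fall (bottom) under the limits given in the methods. Points are mice, marked by number, and short lines are the means of the 3 mice of a group. Con is blue and STZ is red. STZ mouse 3 (triangles) lies nearer to Con than the other STZ mice for all 10 falling genes, as in Mup1, where it was at 32146 RPKM against 45.8 and 34.4.

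The largest falls were of Mup genes, which encode pheromone-binding proteins that the liver of male mice secretes for excretion in urine. Mup1 was at 68877, 60466 and 55703 RPKM in Con mice 1 to 3 and at 45.8, 34.4 and 32146 RPKM in STZ mice 1 to 3. The groups did not overlap, as the rule for the largest falls required. STZ mice 1 and 2 were far below Con while mouse 3 lay much nearer to it. The log2 change of Mup1 was -7.35 ± 2.05 (SE, adjusted p = 0.0165 by limma), and its call ended without Con mouse 1, STZ mouse 1 or STZ mouse 2 (adjusted p = 0.0505, 0.0629 and 0.0726). Mup21 was at 1371, 1841 and 1564 RPKM in Con and at 1.70, 1.24 and 137 RPKM in STZ (log2 change -7.39 ± 1.55, adjusted p = 0.00445 by limma). Mup20, known as darcin, the male scent signal, was at 6428, 2436 and 3988 RPKM in Con and at 5.17, 11.96 and 389 RPKM in STZ (log2 change -6.98 ± 1.23, adjusted p = 0.00207 by limma). All 20 Mup genes that were tested fell (background, 5.67% of all genes lower), with a median log2 change of -6.63. Mup genes share most of their sequence, so the values of single members are uncertain. Mup9, Mup10, Mup16 and Mup17 were called lower although STZ mouse 3 overlapped the Con mice, as for Mup10, at 58988, 36028 and 40393 RPKM in Con and at 41.0, 32.6 and 44991 RPKM in STZ. The calls of these 4 genes ended without Con mouse 1, Con mouse 3, STZ mouse 1 or STZ mouse 2 (adjusted p = 0.0523 to 0.111 by limma).

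**Figure D3:**
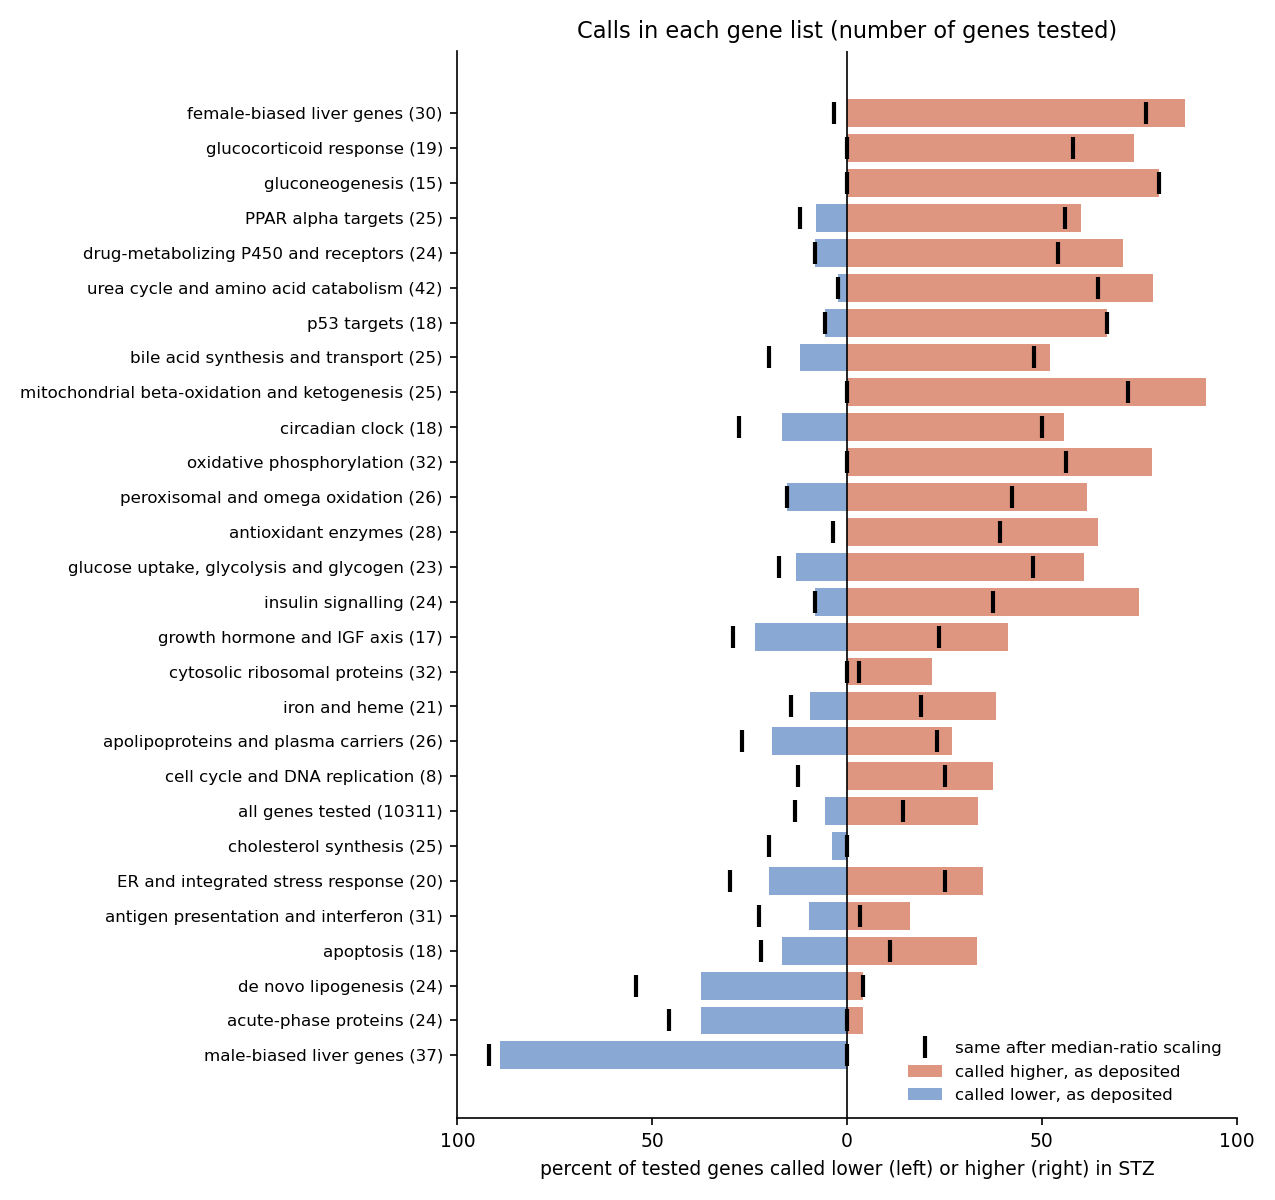
Share of the tested genes of each of 27 gene lists and of all genes that was called higher (to the right) or lower (to the left) in STZ, in percent. Bars are the RPKM as deposited and black marks the same after median-ratio scaling, and lists are ordered by their median log2 change with the number of genes tested in parentheses. Of all genes 33.6% were called higher and 5.67% lower, and male-biased genes, with 33 of 37 lower, stand at the bottom.

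The counts of each gene list below stand beside the shares over all genes. These were 33.6% higher and 5.67% lower as deposited, and 14.2% higher and 13.5% lower after scaling. Sex-biased liver genes were the groups that moved furthest. Of 37 male-biased genes tested, 33 fell and none rose (34 fell after scaling), with a median log2 change of -3.80 against 0.21 over all genes. Of the 21 that are not Mup genes 17 fell, with a median of -2.77. Hsd3b5, a steroid reductase of the male liver, was at 163, 257 and 216 RPKM in Con and at 0.230, 0.230 and 11.1 RPKM in STZ (log2 change -6.31 ± 1.16, adjusted p = 0.00245 by limma). Elovl3, which lengthens fatty acids, was at 209, 228 and 239 RPKM in Con and at 0.190, 0.0600 and 12.03 RPKM in STZ. Cyp4a12a, a fatty acid hydroxylase, was at 387, 363 and 379 RPKM in Con and at 0.410, 0.400 and 94.7 RPKM in STZ. In all 3 genes the groups did not overlap and STZ mouse 3 was highest among the STZ mice. Leaving out STZ mouse 1, STZ mouse 2 or Con mouse 1 lowered the number of male-biased genes called lower to 20, 18 and 20, and without STZ mouse 3 it was 34.

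Of 30 female-biased genes tested, 26 rose and none fell (23 and 1 after scaling), with a median log2 change of 3.54. Cyp4a14, Cyp4a10, Sult2a1, Sult2a2, Cyp2a4, Cyp2b9 and Cyp17a1 above were on this list. Acot3, a thioesterase of peroxisomes, went from 0.0900, 0.450 and 0.410 RPKM to 92.7, 36.1 and 6.79 RPKM (log2 change 4.52 ± 0.77, adjusted p = 0.00173 by limma). Another 8 genes of this list were below the limit for testing, because at most 2 livers reached 1 RPKM. Cux2, a repressor known from the female liver, was at 0.0400 RPKM in each Con mouse and at 12.8, 9.60 and 0.750 RPKM in STZ mice 1 to 3. Cyp3a41a was at 0.170 RPKM in Con mouse 1 and listed at 0 in Con mice 2 and 3, and was at 256, 9.64 and 0.700 RPKM in STZ. For both genes the STZ mice were above the Con mice and mouse 3 was the lowest. The Y-linked transcripts given above show that these livers were from males.

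Genes of the growth hormone and insulin-like growth factor (IGF) axis were called in both directions, 7 of 17 higher and 4 lower (4 and 5 after scaling). The shares over all genes as deposited were 33.6% higher and 5.67% lower. Ghr, the growth hormone receptor, was at 170, 236 and 199 RPKM in Con and at 96.6, 72.6 and 146 RPKM in STZ (log2 change -0.98 ± 0.21, adjusted p = 0.00512 by limma). Igfals, the acid-labile subunit that keeps IGF1 in the circulation, fell by 1.20 ± 0.24 on the log2 scale (adjusted p = 0.00354 by limma). Both were lower in every STZ mouse than in any Con mouse. Igf1 itself was at 86.9, 117 and 99.1 RPKM in Con and at 90.5, 75.9 and 102 RPKM in STZ, with overlap and a log2 change of -0.17 ± 0.13 (adjusted p = 0.306 by limma), and was called lower after scaling (log2 change -0.43, adjusted p = 0.027 by limma). Among the IGF-binding proteins, Igfbp1, which insulin normally holds down, was at 18.1, 24.0 and 21.8 RPKM in Con and at 334, 976 and 190 RPKM in STZ (log2 change 4.16 ± 0.54, adjusted p = 0.000539 by limma). Igfbp2 rose by a log2 change of 2.68 ± 0.33 (adjusted p = 0.00046 by limma). Lepr, the leptin receptor, was at 0.140, 0.140 and 0.170 RPKM in Con and at 46.3, 42.1 and 21.7 RPKM in STZ (log2 change 4.96 ± 0.46, adjusted p = 0.000188 by limma), so that STZ mouse 3 showed the change as well. Egfr, the receptor of epidermal growth factor, was called lower (log2 change -1.14 ± 0.40, adjusted p = 0.0411 by limma), but STZ mouse 3, at 136 RPKM, lay above all Con mice, and the call ended with any other mouse left out (adjusted p = 0.0774 to 0.150).

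Genes of gluconeogenesis rose together, 12 of 15 higher and none lower in both scalings (median log2 change 1.16), and this count was 12 with any of the 6 mice left out. Pck1, which commits carbon to glucose, was at 287, 342 and 302 RPKM in Con and at 2549, 2603 and 1400 RPKM in STZ (log2 change 2.76 ± 0.29, adjusted p = 0.000279 by limma). Got1, an aspartate aminotransferase, rose by 2.75 ± 0.26 and Ppargc1a, the coactivator of fasting metabolism, by 1.86 ± 0.28 on the log2 scale (adjusted p = 0.000188 and 0.00101 by limma). These 3 genes did not overlap between the groups. G6pc, which releases free glucose, was at 156, 265 and 208 RPKM in Con and at 168, 262 and 383 RPKM in STZ, where the groups overlapped and the gene was not called (log2 change 0.32 ± 0.29, adjusted p = 0.396 by limma).

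Of 23 genes for glucose uptake, glycolysis and glycogen, 14 rose and 3 fell (11 and 4 after scaling), with a median log2 change of 0.57. With STZ mouse 1, STZ mouse 2 or Con mouse 2 left out 1 was lower. Slc2a2, which encodes GLUT2, rose by 1.51 ± 0.24 and Ugp2, which makes the UDP-glucose for glycogen, by 1.94 ± 0.17 on the log2 scale (adjusted p = 0.00123 and 0.000132 by limma). The glycogen-targeting subunits of protein phosphatase moved apart. Ppp1r3g was at 0.0300, 0.650 and 0.370 RPKM in Con and at 12.3, 23.2 and 2.96 RPKM in STZ (log2 change 3.03 ± 0.54, adjusted p = 0.00209 by limma), whereas Ppp1r3c and Ppp1r3b fell by 1.45 ± 0.41 and 0.77 ± 0.23 on the log2 scale (adjusted p = 0.0174 and 0.0227 by limma). The call of Ppp1r3c ended without STZ mouse 1, STZ mouse 2 or Con mouse 2 (adjusted p = 0.0507 to 0.0749 by limma), and that of Ppp1r3b without these or Con mouse 3 (0.0629 to 0.0756).

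Among 24 genes of insulin signalling 18 were higher and 2 lower as deposited, and 9 and 2 after scaling, so that about as many of the higher calls ended as lasted. Over all genes 33.6% were higher and 5.67% lower as deposited, and 14.2% and 13.5% after scaling. The lower calls of this list after scaling did not exceed the share of all genes. Irs2, the insulin receptor substrate that insulin represses, was at 1.81, 2.37 and 2.44 RPKM in Con and at 7.71, 11.2 and 6.62 RPKM in STZ (log2 change 1.55 ± 0.20, adjusted p = 0.000539 by limma). Trib3, a pseudokinase that binds AKT, and Eif4ebp3, which holds back translation, rose by 2.5 ± 0.45 and 2.39 ± 0.28 on the log2 scale (adjusted p = 0.00224 and 0.00037 by limma). None of these genes overlapped between the groups. Grb10, an adaptor that damps the receptor, and Pik3r1, the regulatory subunit of PI3-kinase, fell by 0.59 ± 0.15 and 0.44 ± 0.16 (adjusted p = 0.0109 and 0.0461 by limma). The call of Pik3r1 ended with any mouse but STZ mouse 3 left out (adjusted p = 0.0945 to 0.156 by limma), and 1 gene of the list was then lower.

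Amino acid catabolism and the urea cycle rose broadly, with 33 of 42 genes higher and 1 lower (27 and 1 after scaling) and a median log2 change of 0.96. Oat, the ornithine aminotransferase, was at 72.8, 81.6 and 79.9 RPKM in Con and at 1024, 757 and 724 RPKM in STZ (log2 change 3.39 ± 0.32, adjusted p = 0.000188 by limma). Slc7a2, a carrier of arginine and lysine, was at 11.7, 14.7 and 14.1 RPKM in Con and at 121, 105 and 90.7 RPKM in STZ (log2 change 2.88 ± 0.18, adjusted p = 1.72e-05 by limma). For these genes STZ mouse 3 was close to the other STZ mice. The 1 gene that fell was Csad, which makes hypotaurine for taurine synthesis, at 129, 148 and 140 RPKM in Con and at 14.6, 14.4 and 14.8 RPKM in STZ (log2 change -3.17 ± 0.32, adjusted p = 0.000259 by limma). Gpt, the alanine aminotransferase used as a serum marker of liver injury, rose by 0.95 ± 0.18 on the log2 scale (adjusted p = 0.0026 by limma). Ass1, Asl and Cps1 of the urea cycle rose by 1.09, 1.84 and 1.37 on the log2 scale, while Otc, at 0.33, was not called.

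Of 25 genes for mitochondrial beta-oxidation and ketogenesis 23 rose and none fell (18 and none after scaling), with a median log2 change of 0.74. Cpt1a, the gate for fatty acids into mitochondria, was at 39.9, 42.9 and 40.5 RPKM in Con and at 163, 105 and 98.9 RPKM in STZ (log2 change 1.51 ± 0.23, adjusted p = 0.00112 by limma). All STZ mice were above all Con mice. Pdk4, which blocks glucose oxidation, was at 1.87 to 2.92 RPKM in Con and at 3.23, 5.4 and 1.9 RPKM in STZ and was not called (log2 change 0.35 ± 0.28, adjusted p = 0.342 by limma).

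Of 25 target genes of PPAR alpha, the receptor that senses fatty acids in fasting, 15 rose and 2 fell (14 and 3 after scaling), with a median log2 change of 1.15. Besides Cyp4a10 and Cyp4a14, which are on this list as well, Mfsd2a, a lipid carrier, was at 0.890, 2.36 and 1.28 RPKM in Con and at 29.6, 55.2 and 42.2 RPKM in STZ (log2 change 4.11 ± 0.29, adjusted p = 2.82e-05 by limma). Angptl4, an inhibitor of lipoprotein lipase, rose by 1.85 ± 0.28 on the log2 scale (adjusted p = 0.000982 by limma). The members that fell were Fabp1, the main fatty acid-binding protein of the liver, at 5688, 9398 and 7885 RPKM in Con and at 3283, 1311 and 4139 RPKM in STZ, and G0s2, an inhibitor of triglyceride breakdown. Their log2 changes were -1.52 ± 0.38 and -1.75 ± 0.55 (adjusted p = 0.0101 and 0.0266 by limma), and G0s2 overlapped between the groups. Without STZ mouse 1, STZ mouse 2, Con mouse 2 or Con mouse 3 the call of G0s2 ended (adjusted p = 0.0710 to 0.103 by limma) and 1 gene of the list was lower. Fgf21, a fasting hormone of the liver, was below the limit for testing, at 0.780 to 1.00 RPKM in Con and 0.340 to 0.890 RPKM in STZ. Of 26 peroxisomal and omega oxidation genes 16 rose and 4 fell (11 and 4 after scaling, median log2 change 0.62), and Cyp4a12a, Cyp4a12b and Nudt7 among those that fell were also on the male-biased list.

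De novo lipogenesis was one of the few groups with more lower than higher calls, with 9 of 24 genes lower and 1 higher (13 and 1 after scaling), and a median log2 change of -0.45. Scd1, which makes monounsaturated fatty acids, was at 676, 815 and 740 RPKM in Con and at 30.9, 22.5 and 94.4 RPKM in STZ (log2 change -4.16 ± 0.83, adjusted p = 0.00342 by limma). Fasn, fatty acid synthase, was at 40.5, 72.1 and 57.1 RPKM in Con and at 37.9, 21.2 and 24.6 RPKM in STZ (log2 change -0.9995 ± 0.26, adjusted p = 0.0122 by limma). In both genes all STZ mice were below all Con mice, narrowly so for Fasn, whose call ended without STZ mouse 2 (adjusted p = 0.0543 by limma). Srebf1, the factor through which insulin drives this pathway, was at 29.9 to 58.3 RPKM in Con and at 46.4, 23.9 and 29.1 RPKM in STZ and was not called (log2 change -0.41 ± 0.35, adjusted p = 0.364 by limma). The gene that rose was Lpin1, a phosphatidate phosphatase and a coactivator in fasting, from 4.2, 5.94 and 5.22 RPKM to 48.5, 70.3 and 45.5 RPKM (log2 change 3.17 ± 0.35, adjusted p = 0.000327 by limma). Of 25 cholesterol synthesis genes only Sc5d was called, lower by 1.04 ± 0.18 (adjusted p = 0.00203 by limma), and 5 were lower after scaling. The median difference of this list from the Con mean was 0.57, 0.26 and -0.70 in STZ mice 1 to 3, and without STZ mouse 3 there were 10 genes higher and 1 lower. Cholesterol synthesis genes called lower numbered 4 without STZ mouse 1. Lipogenic genes called lower numbered 4 (and higher 3) without STZ mouse 2, 5 without Con mouse 2 and 5 without Con mouse 3.

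Several sterol and bile acid transporters rose while the first enzymes of bile acid synthesis did not pass the test. Of 25 genes for bile acid synthesis and transport 13 rose and 3 fell (12 and 5 after scaling), with a median log2 change of 0.75. Only 1 was lower with STZ mouse 1, STZ mouse 2 or Con mouse 3 left out. Slco1a4, an uptake carrier, was at 2.78, 8.43 and 5.55 RPKM in Con and at 154, 131 and 66.5 RPKM in STZ (log2 change 4.18 ± 0.44, adjusted p = 0.000279 by limma). Abcc4 and Abcg5, which export bile acids to the blood and sterols to the bile, rose by 1.88 ± 0.25 and 1.75 ± 0.19 on the log2 scale (adjusted p = 0.000614 and 0.000313 by limma). Cyp7a1, the rate-limiting enzyme of the classical pathway, was at 24.3 to 30.7 RPKM in Con and at 75.5, 25.5 and 25.1 RPKM in STZ, so that only STZ mouse 1 stood out (log2 change 0.40 ± 0.40, adjusted p = 0.444 by limma). Cyp8b1, which sets the cholic acid share, overlapped and was not called (log2 change -0.10 ± 0.31, adjusted p = 0.826 by limma). Cyp7b1 of the alternative pathway, on the male-biased list as well, was at 258, 230 and 237 RPKM in Con and at 20.1, 17.7 and 113 RPKM in STZ (log2 change -2.77 ± 0.58, adjusted p = 0.00438 by limma).

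Of 24 drug-metabolizing P450 genes and their receptors 17 rose and 2 fell (13 and 2 after scaling), with a median log2 change of 1.02. Cyp2a22 followed Cyp2a5, from 0.890, 1.89 and 1.57 RPKM to 210, 106 and 10.1 RPKM (log2 change 4.71 ± 0.87, adjusted p = 0.00246 by limma). Por, the reductase that feeds electrons to all microsomal P450 enzymes, was at 37.6, 43.6 and 40.9 RPKM in Con and at 552, 447 and 187 RPKM in STZ (log2 change 3.11 ± 0.35, adjusted p = 0.000327 by limma). The groups were apart for both genes. Cyp3a11 was highest in STZ mouse 3, at 8228 RPKM against 3160 and 3595 RPKM in mice 1 and 2 and 1710 to 2585 RPKM in Con. Its call (log2 change 1.11 ± 0.34, adjusted p = 0.0232 by limma) ended after scaling (adjusted p = 0.085) and without Con mouse 1 or Con mouse 3 (0.0844 and 0.0622). Cyp2j5 and Cyp2c70 fell by 1.16 ± 0.31 and 1.02 ± 0.23 on the log2 scale (adjusted p = 0.0147 and 0.00615 by limma), and without STZ mouse 2 the call of Cyp2j5 ended (adjusted p = 0.0602) and 1 gene was lower.

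Clock genes moved in both directions, 10 of 18 higher and 3 lower (9 and 5 after scaling). Dbp, an output factor of the clock, was at 0.660, 0.580 and 0.680 RPKM in Con and at 88.0, 18.7 and 6.75 RPKM in STZ (log2 change 3.86 ± 0.64, adjusted p = 0.0015 by limma). Nr1d1 and Nr1d2, the REV-ERB repressors, rose by 3.19 ± 0.34 and 2.81 ± 0.24 on the log2 scale (adjusted p = 0.000311 and 9.73e-05 by limma). Npas2, which drives the clock and which the REV-ERB proteins repress, was at 2.90, 3.48 and 2.95 RPKM in Con and at 0.0900, 0.290 and 1.87 RPKM in STZ (log2 change -1.37 ± 0.28, adjusted p = 0.00369 by limma). Nfil3 and Cry1 fell by 1.10 ± 0.21 and 0.84 ± 0.23 (adjusted p = 0.00315 and 0.0137 by limma), the latter not called without Con mouse 2 (adjusted p = 0.0502). Groups did not overlap in any of these 6 genes. Because the hour at which each group was sampled is not known, a different hour and a different clock cannot be told apart.

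Of 19 genes that answer glucocorticoids 14 rose and none fell (11 and none after scaling), with a median log2 change of 1.27. Per1, which is a clock gene too, was at 0.440, 2.34 and 1.32 RPKM in Con and at 16.8, 18.5 and 6.19 RPKM in STZ (log2 change 2.60 ± 0.41, adjusted p = 0.00123 by limma). Fkbp5, a chaperone of the glucocorticoid receptor, rose by 1.86 on the log2 scale, and Tsc22d3, another classical target, was at -0.18 and not called. Mt2, a metallothionein, was at 311, 23.4 and 200 RPKM in Con and at 1289, 1719 and 350 RPKM in STZ, so that STZ mouse 3 was close to Con mouse 1 (log2 change 2.998 ± 0.87, adjusted p = 0.0195 by limma), and it was not called without STZ mouse 1 or STZ mouse 2 (adjusted p = 0.0593 and 0.0778). Igfbp1, Tat and Angptl4 of this list also answer insulin or fasting.

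Of 18 target genes of p53, the DNA damage sensor, 12 rose and 1 fell in both scalings (median log2 change 0.79). Phlda3, an AKT inhibitor, was at 0.230, 0.190 and 0.280 RPKM in Con and at 4.77, 2.44 and 4.22 RPKM in STZ (log2 change 1.93 ± 0.19, adjusted p = 0.000208 by limma). Mdm2, which degrades p53, was at 9.10, 8.11 and 8.71 RPKM in Con and at 15.8, 16.1 and 17.8 RPKM in STZ (log2 change 0.87 ± 0.08, adjusted p = 0.000188 by limma). Neither overlapped, and STZ mouse 3 was not the lowest STZ mouse in either. Cdkn1a, the cell cycle inhibitor p21, was at 11.3 to 12.1 RPKM in Con and at 9.12, 19.96 and 37.1 RPKM in STZ, with overlap and no call (log2 change 0.65 ± 0.36, adjusted p = 0.164 by limma). Perp, a membrane protein, fell by 0.42 ± 0.10 (adjusted p = 0.00782 by limma). Sesn1 of this list is also counted under insulin signalling.

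Of 20 genes of the endoplasmic reticulum (ER) and integrated stress response 7 were higher and 4 lower (5 and 6 after scaling), with a median log2 change of 0.11. Over all genes 33.6% were called higher and 5.67% lower as deposited. Herpud1, part of ER-associated degradation, rose by 1.71 ± 0.19 on the log2 scale (adjusted p = 0.000338 by limma). The folding factors Sdf2l1 and Calr fell by 2.31 ± 0.41 and 0.85 ± 0.20 (adjusted p = 0.00218 and 0.00784 by limma), Sdf2l1 from 38.9, 39.7 and 41.5 RPKM to 3.54, 7.52 and 13.7 RPKM. Without STZ mouse 3 the lower calls of this list numbered 7. Among 18 apoptosis genes 6 were higher and 3 lower (2 and 4 after scaling), and 3 were higher with STZ mouse 1, STZ mouse 2, Con mouse 1 or Con mouse 3 left out and 1 lower with Con mouse 2 or Con mouse 3 left out. Mcl1, which protects cells, was the clearest, from 22.6, 22.0 and 23.7 RPKM to 53.2, 56.9 and 38.2 RPKM (log2 change 1.07 ± 0.13, adjusted p = 0.000453 by limma). Bax, which opens the mitochondrial membrane, was not called (log2 change 0.36 ± 0.13, adjusted p = 0.0533 by limma), and Bcl2l1, which guards it, was called as deposited (0.40 ± 0.15, adjusted p = 0.0472 by limma) and not after scaling, nor with any mouse but STZ mouse 3 left out (adjusted p = 0.0625 to 0.178). Of 25 cell cycle genes only 8 reached the limit for testing, of which 3 rose (2 after scaling). In the stress response, apoptosis and cell cycle lists the share of higher calls as deposited was near that of all genes. Ccnd1, cyclin D1, was at 3.49, 1.39 and 2.5 RPKM in Con and at 23.8, 9.17 and 11.9 RPKM in STZ (log2 change 2.15 ± 0.39, adjusted p = 0.00224 by limma), while Mki67 was at 0.420 RPKM or lower in all 6 livers.

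Of 28 antioxidant enzymes 18 rose and none fell (11 and 1 after scaling), with a median log2 change of 0.59. Gsta2, a glutathione transferase, was at 16.2, 45.3 and 29.2 RPKM in Con and at 203, 206 and 217 RPKM in STZ (log2 change 2.86 ± 0.33, adjusted p = 0.000364 by limma). Nqo1, the quinone reductase known as a target of NRF2, was at 0.940 to 1.71 RPKM in Con and at 13.3, 13.7 and 7.37 RPKM in STZ (log2 change 2.36 ± 0.30, adjusted p = 0.000508 by limma). The groups were separate in both genes. The superoxide dismutases and catalase were not called, with log2 changes of 0.18 ± 0.16 for Sod1, 0.26 ± 0.12 for Sod2, 0.58 ± 0.27 for Sod3 and -0.14 ± 0.20 for Cat (adjusted p = 0.389, 0.108, 0.114 and 0.589 by limma).

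Nuclear genes of oxidative phosphorylation rose in 25 of 32 cases and none fell (18 and none after scaling), by a median of 0.62 on the log2 scale. Atp5b, a subunit of ATP synthase, was at 486, 625 and 570 RPKM in Con and at 1355, 1351 and 979 RPKM in STZ (log2 change 1.12 ± 0.20, adjusted p = 0.00207 by limma). The counts ran from 17 without Con mouse 1 to 31 without STZ mouse 3. Cytosolic ribosomal proteins were called higher in 7 of 32 cases (21.9%, below the 39.3% of all genes) and in 1 after scaling. Their median difference from the Con mean was 0.57 and 0.55 in STZ mice 1 and 2 and -0.07 in mouse 3, and without mouse 3 there were 30 of 32 higher as deposited. With STZ mouse 1, STZ mouse 2, Con mouse 1 or Con mouse 3 left out, 1 ribosomal gene was called.

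In iron and heme metabolism 8 of 21 genes were higher and 2 lower (4 and 3 after scaling), beside 33.6% and 5.67% of all genes. With STZ mouse 1, STZ mouse 2, Con mouse 1 or Con mouse 3 left out 5 were higher. Alas1, the rate-limiting enzyme of heme synthesis in the liver, was at 24.9, 82.1 and 50.6 RPKM in Con and at 193, 153 and 188 RPKM in STZ (log2 change 1.89 ± 0.41, adjusted p = 0.00542 by limma). Alas2, the form of this enzyme made by red cell precursors, was at 117, 114 and 121 RPKM in Con and at 3.59, 9.75 and 43.4 RPKM in STZ (log2 change -3.19 ± 0.58, adjusted p = 0.00241 by limma). It is also 1 of 5 red blood cell markers, whose summed level was 1256 to 1972 RPKM in Con and 470 to 1874 RPKM in STZ, and its part in this result was not tested. In bulk tissue fewer cells of a type and less RNA per cell cannot be told apart. Of 26 apolipoproteins and plasma carriers 7 were higher and 5 lower (6 and 7 after scaling), and 3 were lower with STZ mouse 2, Con mouse 2 or Con mouse 3 left out. The share of higher calls, unlike that of lower ones, was below that of all genes. Rbp4, the carrier of retinol, was at 2192, 2782 and 2542 RPKM in Con and at 7431, 6542 and 3990 RPKM in STZ (log2 change 1.21 ± 0.27, adjusted p = 0.00574 by limma). Ttr, its partner in plasma, was at 3721, 6090 and 4897 RPKM in Con and at 2498, 2387 and 2733 RPKM in STZ (log2 change -0.92 ± 0.20, adjusted p = 0.00561 by limma). Apoe, the lipoprotein ligand, had a difference in mean RPKM among the 4 largest in the upward direction but was not called (log2 change 0.30 ± 0.23, adjusted p = 0.321 by limma).

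Acute-phase proteins were called lower in 9 of 24 cases and higher in 1 (11 and none after scaling), with a median log2 change of -0.81, but the Con mice differed among themselves. Saa2, serum amyloid A2, was at 7018, 300.0 and 3826 RPKM in Con and at 14.9, 272 and 21.9 RPKM in STZ (log2 change -5.44 ± 1.23, adjusted p = 0.00633 by limma). Con mouse 2 was thus close to STZ mouse 2, and Saa1 and Saa3 overlapped between the groups. The median difference of this list from the Con mean was 0.60, -0.80 and 0.17 in Con mice 1 to 3 and -1.06, -0.04 and -0.80 in STZ mice 1 to 3. Without Con mouse 1, STZ mouse 1 or Con mouse 3 the number of lower calls was 3, 4 and 4, and without Con mouse 2 it was 14. Of 31 genes of antigen presentation and interferon responses 5 were higher and 3 lower as deposited, and 1 and 7 after scaling. The share called as deposited, 25.8%, was below the 39.3% of all genes. Higher calls prevailed before scaling and lower calls after it. Leaving out Con mouse 1 or STZ mouse 1 left 1 and 2 higher calls, leaving out Con mouse 2 or Con mouse 3 left 3, and leaving out STZ mouse 3 gave 6 lower ones. Usp18, an interferon-induced protease, rose in both scalings, by 1.80 ± 0.20 on the log2 scale (adjusted p = 0.000311 by limma).

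Markers of other cell types were measured beside these lists. The summed level of 12 markers of Kupffer cells and macrophages was 132 to 200 RPKM in Con and 195 to 384 RPKM in STZ. Of the 12, 3 were called higher (1 after scaling), a share of 25% against 33.6% of all genes higher. Their median log2 change was 0.58, against 0.21 over all genes. That of 8 markers of stellate cells and fibroblasts was 74.3 to 85.9 RPKM in Con and 111 to 136 RPKM in STZ. Only 1 of 7 tested genes was called higher (14.3%), and none after scaling. Their median log2 change, 0.07, was below that of all genes, so the sums do not describe most members. The 7 endothelial markers summed to 52.9 to 60.4 RPKM in Con and 59.3 to 75.6 RPKM in STZ. The 6 cholangiocyte markers summed to 23.1 to 41.2 RPKM and 21.3 to 41.3 RPKM. Markers of T and NK cells, of B and plasma cells and of neutrophils were low in all livers, at 2.28 to 3.18, 2.13 to 2.21 and 2.92 to 10.0 RPKM in Con and 0.840 to 2, 0.650 to 1.16 and 1.25 to 3.77 RPKM in STZ. Of the 5 markers of pancreatic acinar cells Cela1 alone was tested, and it fell from 30.8, 40.5 and 36.3 RPKM to 5.39, 2.96 and 8.73 RPKM (log2 change -2.55 ± 0.33, adjusted p = 0.000515 by limma). All 5 summed to 31.2 to 40.6 RPKM in Con and 2.96 to 8.86 RPKM in STZ, nearly all of it Cela1. The fall of Cela1 therefore does not stand for acinar cells. Plin1, Lep and Adig of adipocytes and all 5 skeletal muscle markers were listed at 0 in all 6 livers.

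The 3 STZ mice did not change to the same extent. In the 646 genes called with a 2-fold change, STZ mouse 3 lay nearest to the Con mean in 534 (82.7%), mouse 2 in 70 (10.8%) and mouse 1 in 42 (6.50%). The median distance from the Con mean in these genes was 1.71, 1.67 and 1.01 on the log2 scale in mice 1 to 3. How far mouse 3 lagged depended on the group of genes. For male-biased genes its median was -1.13, against -4.94 and -6.23 in mice 1 and 2, and for female-biased genes it was 2.09 against 3.86 and 3.65. For gluconeogenesis it was 0.90 against 1.18 and 1.21, for PPAR alpha targets 1.03 against 1.28 and 1.15, for p53 targets 0.75 against 0.86 and 0.75, and for insulin signalling 0.46 against 0.48 and 0.48. The genes with the widest range among the STZ mice were all Mup genes, led by Mup17, at 3.11, 1.72 and 4893 RPKM, a range of 10.8 on the log2 scale. With STZ mouse 3 left out 4926 genes were called, 4130 higher and 796 lower. These differences among the STZ mice are descriptions of single mice.

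**Figure D4:**
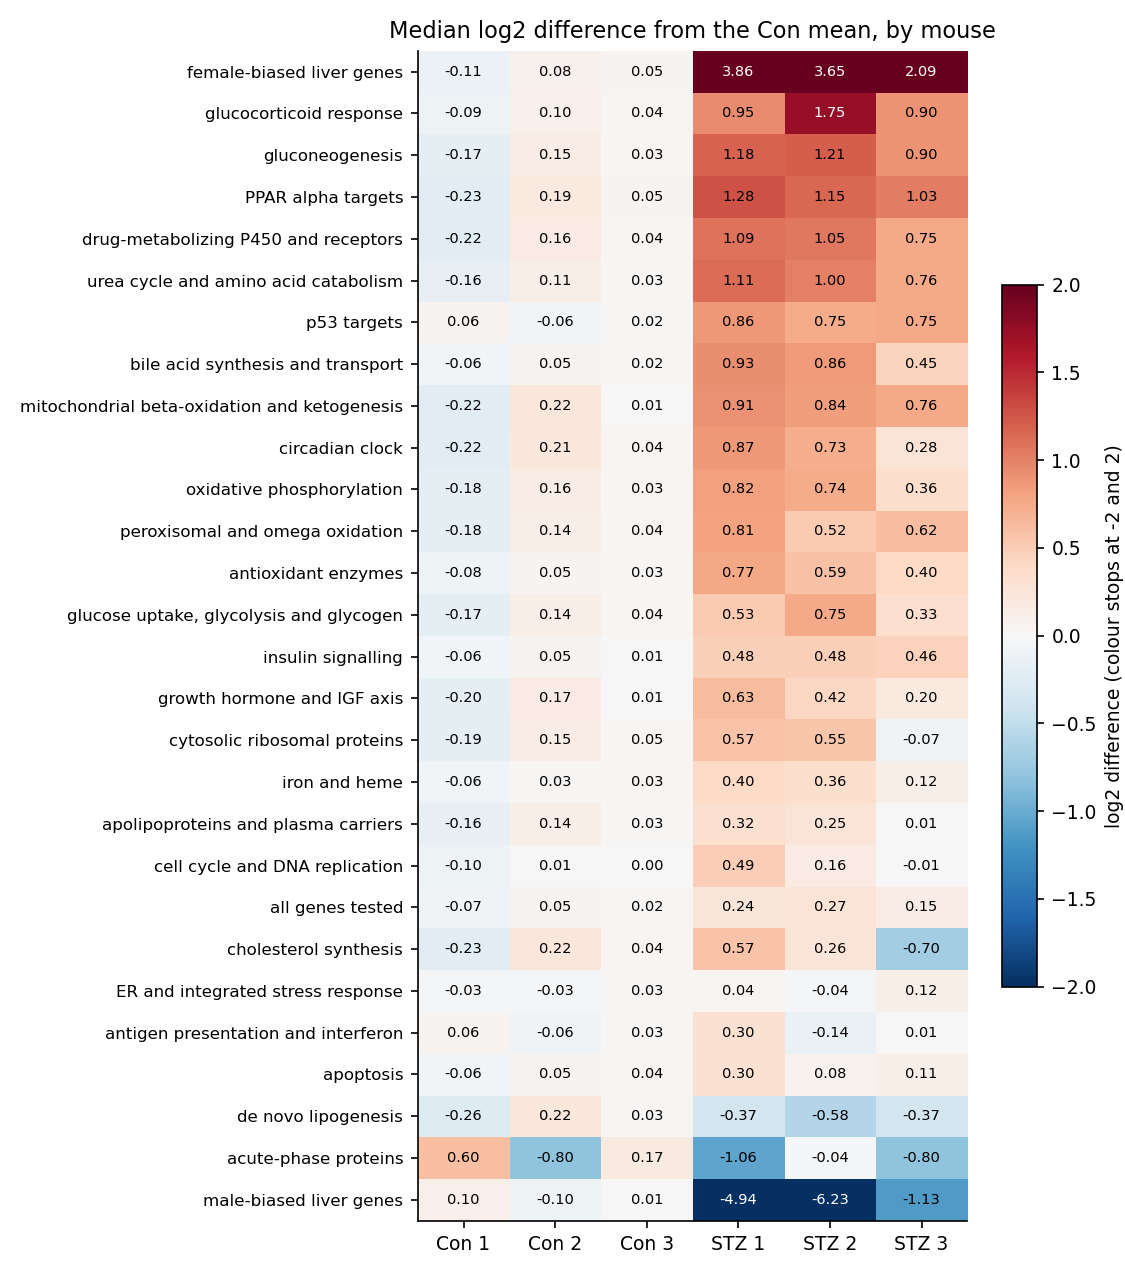
Median log2 difference from the mean of the 3 Con mice over the tested genes of each list, for each of the 6 mice. Each row is a list, each column a mouse, and colour and number give the median on the log2(RPKM + 1) scale. The male-biased row reads -4.94, -6.23 and -1.13 in STZ mice 1 to 3, while the insulin signalling row is near-even at 0.48, 0.48 and 0.46.

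The STZ effect of STZ+AOS against AOS was set beside the one above. Its log2 changes come from other mice than those of STZ against Con. Its spread between mice was estimated from all groups, including those that set the spread of STZ against Con. The calls of these comparisons are therefore not independent of each other. In STZ+AOS against AOS 3963 of the same 10311 genes were called (38.4%), 3333 higher (32.3%) and 630 lower (6.11%). Of the 4051 genes called in STZ against Con 2769 (68.4%) were also called there, which is 69.9% of its calls, and 2767 of these had the same sign. Of the 646 genes with 2-fold calls 641 had the same sign and 570 were called with it. Across genes, which are not independent, the changes in these pairs of groups had a Pearson r of 0.881 and a Spearman rho of 0.760. This agreement was computed only in the values as deposited. There both pairs centred above 0, at a median log2 change of 0.21 each, which by itself favours equal signs. Cyp4a14 went from 4.40 ± 3.96 RPKM (SD, n = 3) in AOS to 1071 ± 402 RPKM in STZ+AOS, a log2 change of 7.85 ± 0.68 (SE, adjusted p = 5.16e-06 by limma). Csad went from 162 ± 8.83 to 22.2 ± 29.2 RPKM (log2 change -3.63 ± 0.60, adjusted p = 0.000623 by limma). Lepr rose by 5.83 ± 0.45 and Hsd3b5 fell by 7.29 ± 1.00 on the log2 scale in that pair (adjusted p = 1.71e-06 and 0.000206 by limma). Male-biased genes were lower in 33 of 37 cases and female-biased genes higher in 23 of 30 and lower in 1.

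The difference between these STZ effects was tested gene by gene and no gene was called by limma (563 genes, 5.46%, had an unadjusted p under 0.05, and 355 to 1283 did under the alternatives). The smallest adjusted p was 0.805, and the median SE of the difference was 0.20 on the log2 scale. The genes called in both pairs with opposite signs were S100a9, a neutrophil protein, and Stom, a membrane protein, both named after their values were seen. S100a9 changed by -1.06 in STZ against Con and by 1.41 in STZ+AOS against AOS, and Stom by 0.32 and -0.34 (adjusted p of the difference 0.847 by limma for each). Acute-phase proteins were lower in 9 and higher in 1 of 24 genes in STZ against Con and lower in none and higher in 6 in STZ+AOS against AOS. For Saa2 the changes were -5.44 ± 1.23 and 1.99 ± 1.55, and their difference, -7.43 ± 2.19, was not called (adjusted p = 0.847 by limma).

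**Figure D5:**
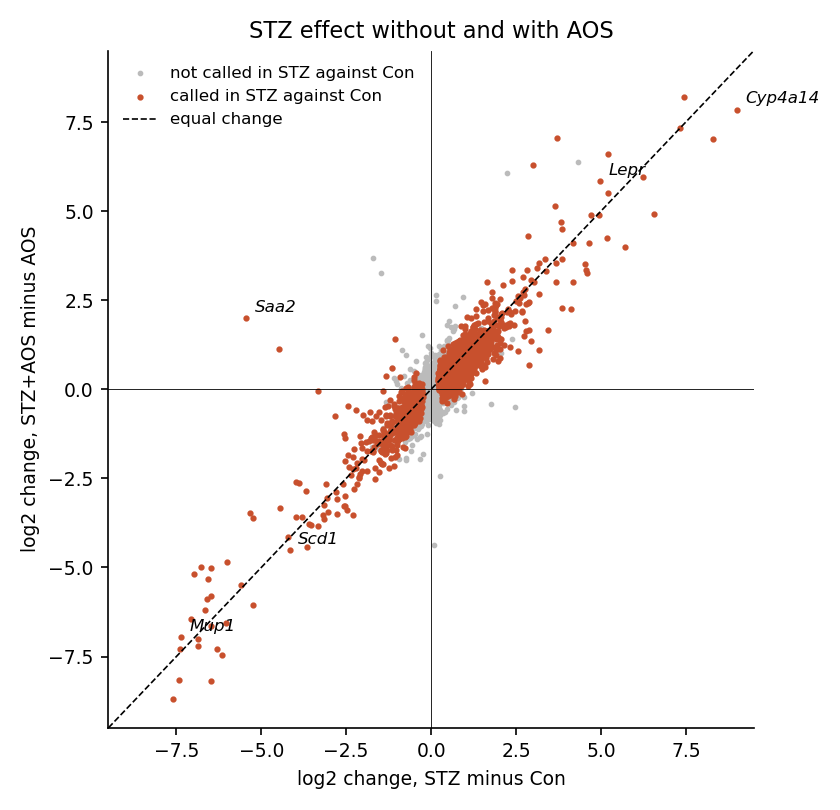
Change of each of the 10311 genes in STZ+AOS minus AOS (vertical axis) against its change in STZ minus Con (horizontal axis), both as log2 changes on the log2(RPKM + 1) scale. Points are genes, red where called in STZ against Con, and the dashed line marks equal change. Of the 646 genes with 2-fold calls 641 lie on the same side of 0 in both, and Saa2, at -5.44 and 1.99, lies far from the line.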

How the data were processed

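Liver RNA of 18 mice, 3 in each of 6 groups, was sequenced, and the authors deposited 1 table of RPKM values per gene symbol, normalised by transcript length and mapped reads. The study's methods name SOAPaligner, whereas the submitters' processing notes list Bowtie 0.12.2 and the mouse build mm10. Whole-read steps fitted 10 of 383 low genes (tolerance 0.2 of a step), too few to recover counts, so the depth is unknown.

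Genes that reached 1 RPKM in 3 or more of the 6 Con and STZ libraries were kept. STZ minus Con was fitted with limma 3.58.1 (R 4.3.3, intensity trend) on log2(RPKM + 1) in 12 libraries (Con, STZ, A10-FMT and Con-FMT, 8 residual degrees of freedom). STZ+AOS minus AOS and the difference of effects were fitted in all 18. P-values were adjusted by Benjamini-Hochberg over all genes tested, and an adjusted p under 0.05 was called. The pseudocount of 1 understates the change of low genes. P-values measure the spread between these mice. On simulated data with 50 genes at each change, 47 and 49 were recovered at log2 changes of 2 and -2 and 41 and 45 at 1 and -1, with 5 false calls. The simulated noise was independent, of equal spread in all groups and without a common shift. It therefore checks the fit and gives no error rate for these data, in which the STZ mice differed widely.

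The comparison, the 27 gene lists and the rule for named genes were chosen with earlier results of these data known. Named genes were the 10 largest changes in each direction (called in both scalings, 2-fold or more, no overlap, mean of 5 RPKM or more, no predicted genes), the 4 largest differences of mean RPKM in each direction, up to 3 members of each list and direction, the 5 widest ranges among the STZ mice, up to 5 genes in each direction called for the difference of effects, and a fixed set of metabolic and injury genes. Elovl3, Ass1, Asl, Cps1, Otc, Por, Fkbp5, Tsc22d3, Tat, Sesn1, Mki67, Cux2 and Cyp3a41a were named after their values were seen, a few genes that the rule names are not reported here, and the remaining genes named are single markers. Gene coordinates and promoters came from RefSeq and GENCODE tables of GRCm38, matched by symbol for 10212 of the genes tested. The alternatives were other scalings, pseudocounts, filters and sample sets, a replicate block, and each library left out in turn.

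Replicate numbers did not pair the mice: deviations from the group means of same-numbered Con and STZ mice correlated at -0.14, -0.15 and -0.07.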

Additional observations from a re-analysis of the deposited data

How the results depend on the processing

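Scaling set the balance of directions. Genes called higher and lower numbered 1469 and 1392 after median-ratio scaling, 1381 and 1522 after median centring, 1491 and 1387 after quantile normalisation, and 1543 and 1429 with GC content and length trends removed. With the Con and STZ libraries alone 2651 were called (2288 and 363), and at an adjusted p of 0.001 with a 2-fold change 204 (176 and 28). Leaving out 1 library gave 2582 (without Con mouse 1) to 4926 calls (without STZ mouse 3), 2130 to 4130 of them higher and 336 (without Con mouse 3) to 796 lower, and without STZ mouse 2 there were 2630 (2263 and 367). With STZ mouse 3 left out and median-ratio scaling there were 1937 and 1877. In STZ+AOS against AOS 2548, 2564 and 2620 genes were called after median-ratio scaling, median centring and quantile normalisation. For the difference of effects 1 gene was called with no filter on low values. Over all alternatives the 141 named genes kept direction and side of the threshold in 2498 values, lost the call in 139 and gained it in 11, and none reversed. Many of them were named because they were called in both scalings, so this stability was partly set by their choice. Over all genes median-ratio scaling ended 1997 of the higher calls. The cause of these changes was not tested.

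The replicate block called 3691 genes (3149 higher and 542 lower), and with median-ratio scaling 2637 (1368 and 1269). No pairing by number is described for these mice, so the block is only an alternative.

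The read depth is unknown, so no counting interval is given.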
